A study of Mus musculus with 12 samples.

Results

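The genes for the proteins of the cytosolic ribosome were followed in bone marrow-derived macrophages (BMDMs) of WT and Pim1-/- mice. They were chosen by symbol, as Rpl or Rps followed directly by a digit together with Rplp0, Rplp1, Rplp2 and Rpsa, leaving out pseudogenes marked -ps and the Rps6k kinases. Of the 23997 genes in the files 87 took this rule, and 84 of these reached 1 FPKM in at least 3 of the 12 libraries, among 10581 genes that did so. The remaining 3, Rpl10l, Rpl39l and Rpl3l, are paralogues of other members and were not tested. Rpl10l was listed at 0 in all 12 libraries, Rpl3l reached at most 0.0881 FPKM and Rpl39l lay between 0.259 and 1.23 FPKM. The 84 comprised 46 genes of the large subunit, 32 of the small subunit, the 5 paralogues Rpl22l1, Rps27l, Rpl7l1, Rpl36al and Rps4l, and Rps19bp1. The last takes the rule by its name only, since it codes for a protein that binds Rps19 and not for a ribosomal protein. Among the 32 are both Rps27 and Rps27rt, which have the same coding sequence, and the annotation used gives Rps4l no coding sequence.

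Each ribosome carries a single copy of most of these proteins, and their mRNAs are among the most abundant of growing cells. Most ribosomal protein mRNAs begin with a short pyrimidine stretch, the 5′ terminal oligopyrimidine (TOP) motif, through which mTOR and the RNA-binding protein LARP1 set their translation, and several of the proteins also act outside the ribosome. Activated macrophages translate large amounts of cytokine mRNA, and Pim kinases are known to phosphorylate regulators of cap-dependent translation.

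RNA-seq was done on BMDMs of C57BL/6 background in 4 groups of 3 libraries: WT and Pim1-/- cells without treatment, and WT and Pim1-/- cells given LPS, the bacterial ligand of TLR4, at 100 ng/ml for 4 h. The mice were male and 8 to 10 weeks old, the knockout was a CRISPR/Cas9 deletion of exons I to V of Pim1 carried by every cell of the mouse, and the cells were grown from marrow with M-CSF. The sources used here do not say whether the 3 libraries of a group came from separate mice, so p-values measure only the spread between these libraries. Values were read as FPKM, fragments per kilobase of transcript with a scaling between libraries, as deposited. The sources used here do not describe that scaling, and it did not follow library depth alone, as given below.

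The targeted gene was lower in every knockout library, though not absent. Pim1 lay at 25.0, 21.5 and 22.3 FPKM in untreated WT and 8.69, 8.00 and 9.51 in untreated Pim1-/- libraries, and at 665, 630 and 641 FPKM in LPS-treated WT and 216, 205 and 236 in LPS-treated Pim1-/- libraries. Macrophage markers summed to between 27750 and 30850 FPKM in WT and between 14310 and 17510 in Pim1-/- libraries, led by Lyz2. Of 22 cell cycle genes 22 were higher in untreated Pim1-/- cells, with a median of 8.67-fold, and 21 were higher after LPS, with a median of 5.21-fold. The markers of dendritic, B, T and NK and erythroid cells summed to at most 5.40 FPKM in any library, those of stromal cells to at most 11.3 and those of neutrophils to at most 54.7, with Cd3e and Hba-a1 listed at 0 in the mean of each group. The part of proliferation, and of the fall in Lyz2, in the values given here was not tested.

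Start regions of the members are shown first, because the pyrimidine run near the start is the sequence feature most of them share. RefSeq sequences around the annotated start (GRCm38.p6) were found for 63 of the 84 members. An uninterrupted run of at least 10 C or T on the gene's strand within 50 bases on either side of the start was present in 44 of these 63, or 69.8%, and in 20.6% of all 27025 genes of the table and 19.6% of the tested genes. The letters CTTTCC, searched on the gene's strand in the same window, occurred in 20 of 63 members and in 5.43% of all genes, and they can overlap such a run. CCGGAA, the core of the sites that ETS factors bind, occurred on either strand of the 300 bases around the start in 35 of 63 members, in 34.1% of the tested genes and in 16.7% of all genes. Its reverse complement can overlap CTTTCC by its letters TTCC. For the mitochondrial ribosomal proteins, whose mRNAs are not known for the TOP motif, the runs occurred in 12 of 68 genes and CCGGAA in 39 of 68. Windows of 30 bases are printed 5′ to 3′ on the gene's strand with the pyrimidine run in capitals, for members that were lower in untreated Pim1-/- cells (Rpl28, Rpl18, Rplp2), members that were higher there (Rpl26, Rps12, Rps24) and paralogues (Rpl22l1, Rpl36al). Capitals mark only the part of a run within 50 bases of the start. In Rpl26 the run begins before that limit, with the small letters cc directly ahead of the capitals.
Rpl28: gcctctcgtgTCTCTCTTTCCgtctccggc
Rpl18: tcgcaggccgCTCTTTCCCCgcccactccg
Rplp2: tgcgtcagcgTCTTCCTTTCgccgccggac
Rpl26: tcccaaccTCCTCTCCCCTTTCgctccgag
Rps12: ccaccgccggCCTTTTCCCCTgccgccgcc
Rps24: gagcggTCCTCTTTTCCTCCTCTCCagctc
Rpl22l1: cgcaagcccgTTCTCTTCCCacggctgcag
Rpl36al: gctctgttcgTCCCTTTCCTgttcggcgcg
The windows lie at chr7:4792952-4792981 (+) for Rpl28, chr7:45718062-45718091 (+) for Rpl18, chr7:141447636-141447665 (+) for Rplp2, chr11:68901508-68901537 (+) for Rpl26, chr10:23787182-23787211 (-) for Rps12, chr14:24490710-24490739 (+) for Rps24, chr3:28805499-28805528 (+) for Rpl22l1 and chr12:69184020-69184049 (-) for Rpl36al. Members that moved in opposite directions between genotypes thus carried a run, and the annotated starts need not be the starts used in these cells.

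Levels of the members were high and close together. Over the 12 libraries their mean levels had a median of 929 FPKM with quartiles at 594 and 1282 FPKM, a 2.16-fold span, and 61 of the 84 lay between 500 and 2000 FPKM. Among all 23997 genes 65 of the members stood in the 200 with the highest mean FPKM. The highest were Rps29, Rpl41, Rps12, Rpl10 and the stalk protein gene Rplp1, with group means of 2300 ± 128 FPKM (SD, n = 3) in untreated WT to 3137 ± 278 in LPS-treated Pim1-/- cells for Rps29. Neighbours in this order were not separated over all libraries, since Rps29 lay above Rpl41 in 9 of 12 libraries, Rpl41 above Rps12 in 9, Rps12 above Rpl10 in 6 and Rpl10 above Rplp1 in 6. Only 9 members averaged under 100 FPKM, and the 5 lowest were Rps27, Rps4l, Rps19bp1, Rpl30 and Rpl7l1. Replicates lay close, with a median coefficient of variation over members of 1.98% in LPS-treated WT cells and between 5.12% and 5.75% in the other groups. Members moved together within libraries. Above their group mean on the log2 scale were 84, 30 and 9 members in the untreated Pim1-/- libraries and 53, 80 and 6 in untreated WT. After LPS these were 74, 56 and 12 in Pim1-/- and 33, 44 and 51 in WT libraries. Counts of members are thus not counts of independent results.

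**Figure D1:**
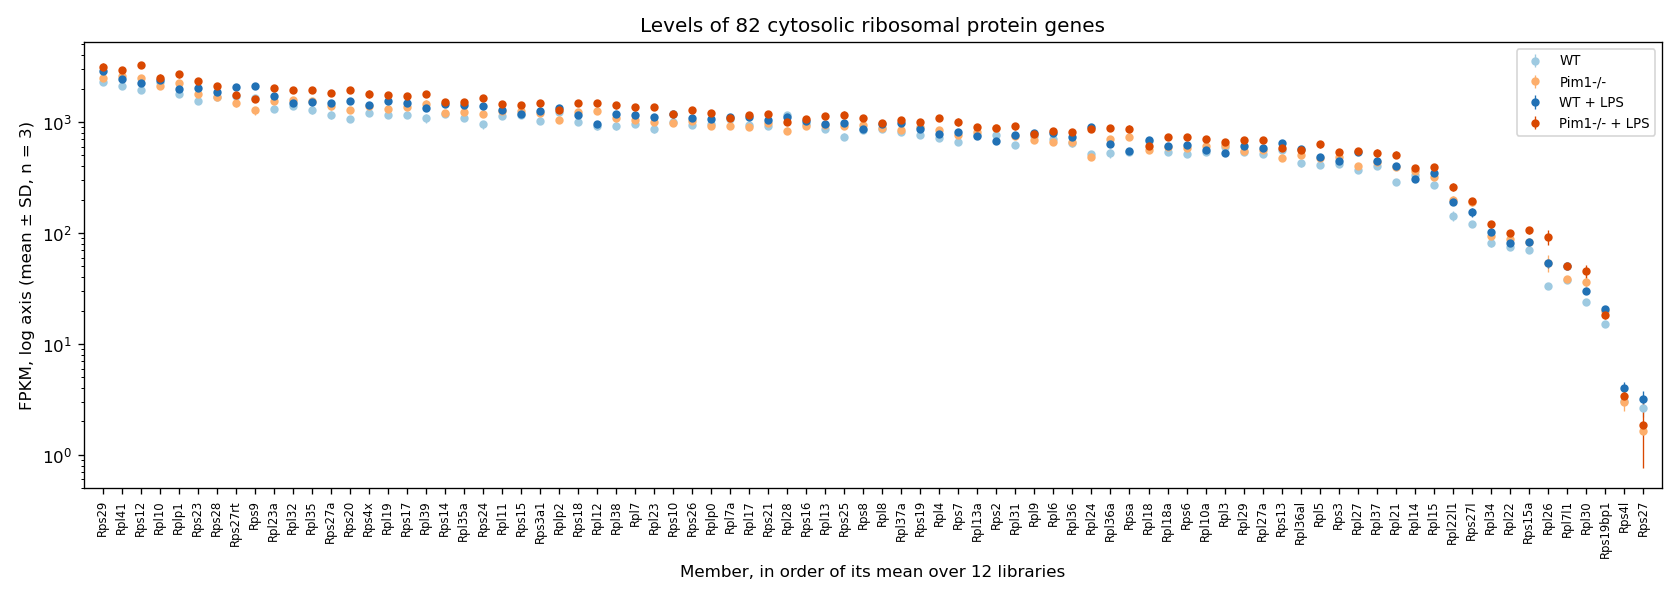
Mean FPKM with its SD in each of the 4 groups (3 libraries each) on a log axis, for 82 of the 84 members in order of their mean over 12 libraries. From Rps29 to Rpl15 the levels fall gradually, and the members at the right end lie far below the rest, down to Rps27 at 1.63 to 3.20 FPKM.

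Some of the lowest values belong to members whose coding sequence has a near-identical copy in the files. Of the 84 members 78 had at least 1 annotated copy with 95% identity over 80% of the coding sequence in GENCODE M21 (GRCm38), most of them processed pseudogenes, and 15 had such a copy among the genes in the files. In 4 of these the copy carried far more signal than the member. Rps27 was listed at 2.33 FPKM on average and Rps27rt, a single-exon gene on chr9:114982366-114982739 that itself takes the rule, at 1751. The coding sequence of Rps27 (chr3:90212671-90213651, 4 exons, minus strand) and that of Rps27rt are the same in all 255 bases, so that reads inside it cannot be told apart, and it is printed once with no capitals because no base differs.
Rps27: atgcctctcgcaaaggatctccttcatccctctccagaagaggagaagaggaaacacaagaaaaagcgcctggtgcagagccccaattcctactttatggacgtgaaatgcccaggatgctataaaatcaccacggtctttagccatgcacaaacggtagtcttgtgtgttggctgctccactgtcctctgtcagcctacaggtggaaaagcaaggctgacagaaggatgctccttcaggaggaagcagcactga
Rpl26, listed at 58.1 FPKM on average, differs from Gm15772 on chr5:3236431-3236868, listed at 1891, at 2 of 438 coding bases, C177T and T288C. Rpl30, at 33.9 FPKM, differs from Gm12191 on chr11:49678710-49679057, at 1248 FPKM, at 1 of 348 coding bases, G96A. Positions are counted from the first base of the start codon and the member's base comes first. The windows of 41 bases around the sites have the differing base in capitals.
Rpl26: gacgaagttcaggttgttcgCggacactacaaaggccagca
Gm15772: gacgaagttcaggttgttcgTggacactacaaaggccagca
Rpl26: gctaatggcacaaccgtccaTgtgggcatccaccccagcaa
Gm15772: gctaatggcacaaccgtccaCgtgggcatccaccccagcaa
Rpl30: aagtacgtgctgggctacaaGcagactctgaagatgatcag
Gm12191: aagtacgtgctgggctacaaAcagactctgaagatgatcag
Rpl34 and Rpl34-ps1 differ at 2 of 354 coding bases and were listed at 99.3 and 1204 FPKM. The share of the summed FPKM that fell on the member was 0.133% for Rps27, 2.98% for Rpl26, 2.64% for Rpl30 and 7.62% for Rpl34, so the values of these 4 members are uncertain, and those of Rps27 rested on an estimated 3.12 to 20.0 fragments per library. In Rpl21 the order was the other way round, with 94.2% of the sum on the member and the rest on BC004004.

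Between genotypes without treatment most members were slightly higher in Pim1-/- cells. At an FDR under 0.05 with limma and Benjamini-Hochberg adjustment over all genes tested, 53 of 84 members were higher (63.1%), 10 were lower and 21 did not pass, while 32.7% of all genes were called higher and 42.0% lower. The median difference of the members was 0.18 on the log2(FPKM + 1) scale, or 1.13-fold, against −0.05 for all genes. Within groups the member median varied between replicates with an SD of 0.0585 log2, and the members shared much of that movement. No member passed the rule of the study's methods, more than 2-fold with p under 0.05 and an FDR under 0.1, which 7.78% of all genes passed in either direction. The largest member difference was 1.58-fold, and with limma at an unadjusted p under 0.05 the members numbered 55 higher and 11 lower.

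The 5 members with the largest increase without treatment were Rps27l, Rpl26, Rpl30, Rpl22l1 and Rpl12. Rps27l, a paralogue of Rps27 and a known p53 target, stood at 119, 128 and 113 FPKM in WT and 208, 190 and 175 in Pim1-/- libraries, which do not overlap, and rose by 0.66 ± 0.08 log2 (SE, limma adjusted p = 1.1e-06). Rpl12, whose protein sits at the base of the ribosomal stalk, lay at 914, 974 and 854 FPKM in WT and 1336, 1252 and 1171 in Pim1-/- libraries, a difference of 0.46 ± 0.06 log2 (limma adjusted p = 5.4e-06). Here too every knockout library was above every WT library. Rpl26, whose protein binds p53 mRNA, lay at 34.1, 30.8 and 35.2 FPKM in WT and 64.0, 45.7 and 51.6 in Pim1-/- libraries, or 0.66 ± 0.11 log2 (limma adjusted p = 8.7e-05). This did not carry over to the sum of Rpl26 and its copy Gm15772, which was 1655 ± 121 FPKM in WT and 1762 ± 105 in Pim1-/- cells (SD, n = 3). For Rpl30 with its copy the sums were 1087 ± 79.6 and 1235 ± 82.0 FPKM.

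On the other side stood members that were lower in untreated Pim1-/- cells, among them Rpl28, Rps9, Rpl18 and Rplp2. Rpl28 of the large subunit lay at 1160, 1172 and 1139 FPKM in WT and 874, 769 and 871 in Pim1-/- libraries and fell by 0.47 ± 0.05 log2 (SE, limma adjusted p = 4.7e-07). Rps9, an early-joining protein of the small subunit, was at 1656, 1730 and 1555 FPKM in WT and 1390, 1188 and 1236 in Pim1-/- libraries and fell by 0.38 ± 0.06 log2 (limma adjusted p = 3.7e-05). In both genes the genotypes did not overlap. Rpl18 and Rplp2 both fell by 0.25 log2, and further members that were lower at this threshold were Rps27rt, Rps13, Rpl7a, Rpl9 and Rpl6, chosen here after their values were seen.

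After LPS most members were again higher in the knockout. By limma 57 of 84 members were higher (67.9%), 8 were lower and 19 did not pass, beside 35.7% of all genes called higher and 41.7% called lower. The members' median difference was 0.24 log2, and that of all genes −0.03. Again 0 members passed the 2-fold rule, which 8.66% of all genes passed, and the largest difference was 1.70-fold. With limma at an unadjusted p under 0.05, 57 were higher and 8 lower.

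Rpl26, Rpsa, Rpl12, Rpl30 and Rps12 rose most after LPS. Rpsa, which codes for a small subunit protein also known as the laminin receptor precursor, lay at 551, 534 and 553 FPKM in WT and 929, 873 and 805 in Pim1-/- libraries and rose by 0.67 ± 0.06 log2 (SE, limma adjusted p = 3.5e-08). Rpl12 stood at 949, 959 and 950 FPKM in WT and 1561, 1527 and 1380 in Pim1-/- libraries, a difference of 0.64 ± 0.06 log2 (limma adjusted p = 1.0e-07). Rps12, the third in level of all members, was at 2282, 2243 and 2224 FPKM in WT and 3416, 3257 and 3041 in Pim1-/- libraries, or 0.52 ± 0.06 log2 (limma adjusted p = 8.8e-07). All knockout libraries lay above all WT libraries in these 3 genes. Rpl26 rose by 0.77 ± 0.11 log2, and its sum with Gm15772 was 2030 ± 52.6 FPKM in WT and 2350 ± 144 in Pim1-/- cells. Rpl4 of the large subunit, with 774, 790 and 768 FPKM in WT against 1110, 1094 and 1023 in Pim1-/- libraries, rose by 0.47 ± 0.05 log2.

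Among the members past the threshold Rps27, Rps9, Rps27rt, Rps19bp1 and Rpl18 had the largest decreases after LPS. Rps9 lay at 2190, 2013 and 2092 FPKM in WT and 1693, 1590 and 1598 in Pim1-/- libraries and fell by 0.37 ± 0.06 log2 (limma adjusted p = 4.4e-05). Rps27rt, which holds nearly all of the signal of the shared Rps27 sequence, was at 2057, 2076 and 2073 FPKM in WT and 1785, 1787 and 1670 in Pim1-/- libraries, a decrease of 0.24 ± 0.06 log2 (limma adjusted p = 0.0012). The sum of Rps27 and Rps27rt was lower in Pim1-/- cells at both times, at 1472 ± 109 against 1721 ± 110 FPKM without treatment and 1749 ± 66.8 against 2072 ± 9.85 after LPS (SD, n = 3). Rps27 itself lay at 3.47, 2.57 and 3.55 FPKM in WT and 0.670, 2.81 and 2.06 in Pim1-/- libraries, which overlap.

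**Figure D2:**
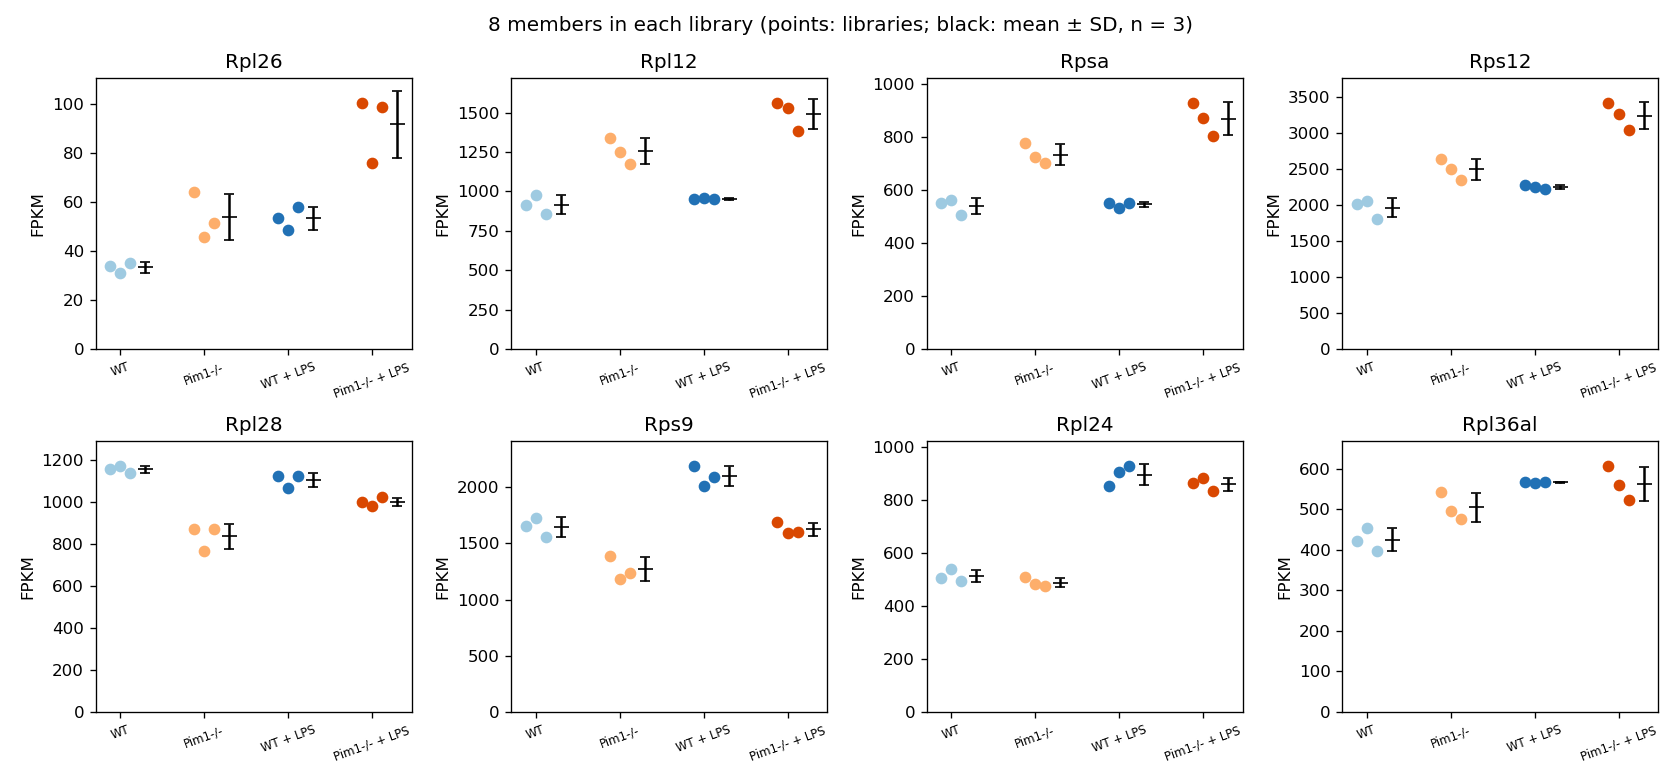
FPKM in each library (coloured points, 3 per group) with the group mean ± SD (black) for 8 members, each panel from 0. Rpl12, Rpsa, Rps12 and Rpl26 are higher in both knockout groups, Rpl28 and Rps9 are lower, Rpl24 is separated by treatment while its genotypes overlap, and the genotypes of Rpl36al overlap after LPS only.

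Which members stood high or low was much the same in the 2 genotype comparisons, which share no library. Across the 84 members Pearson's r between the difference without treatment and that after LPS was 0.83, and across all 10581 genes it was 0.62, with points that share transcript length and base composition and are not independent. At an FDR under 0.05 in both, 49 members were higher, 6 were lower and 1, Rps19bp1, went opposite ways. These joint counts were not taken over all genes, so they have no background share. In the single comparisons 32.7% and 35.7% of all genes were called higher and 42.0% and 41.7% lower. Both subunits were on the same side, with medians of 0.13 log2 over 46 large subunit and 0.20 over 32 small subunit genes without treatment, and 0.24 and 0.23 after LPS.

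**Figure D3:**
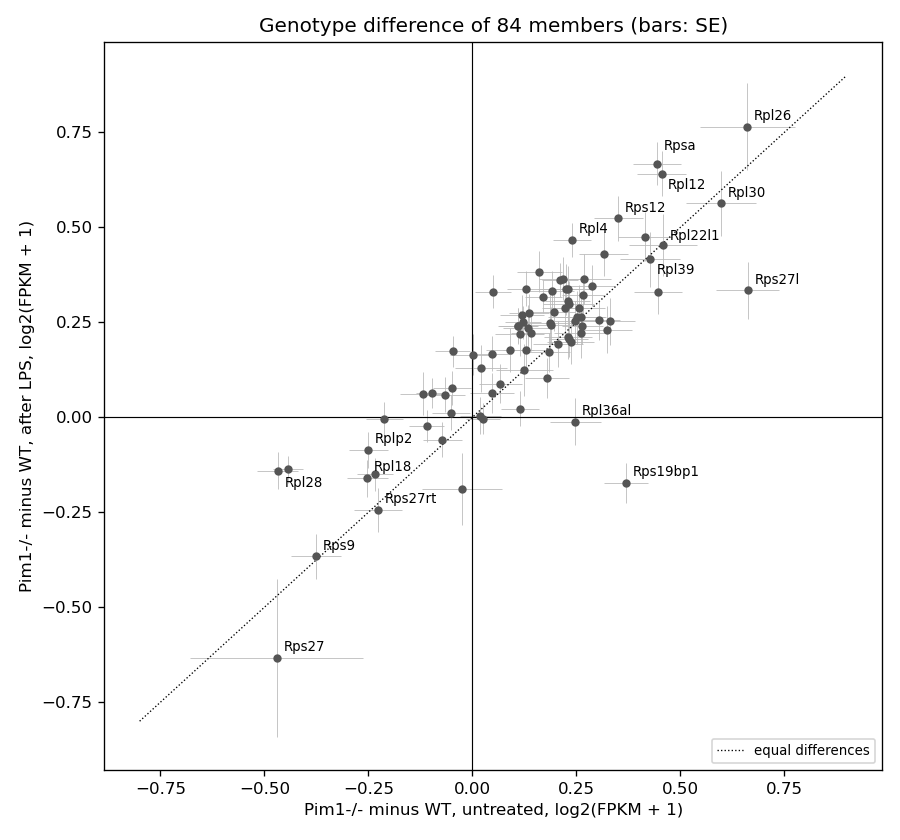
Difference between Pim1-/- and WT cells on the log2(FPKM + 1) scale without treatment (horizontal) and after LPS (vertical) for the 84 members, with SE bars. Points follow the dotted line of equal differences, with Rpl28 above it on the left and Rps27l, Rpl36al and Rps19bp1 below it on the right.

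Short transcripts in general were higher in Pim1-/- cells without treatment, and the members' transcripts are short, with a median of 882 nt. The 660 other tested genes with annotated transcripts under 1000 nt had a median difference of 0.18 log2, with 50.5% called higher and 21.2% lower. After LPS their median was 0.17 log2, and 49.5% of them were called higher. Once the differences were adjusted for length by a loess curve in a fit with the replicate number as a block, the members' median was 0.02 log2 without treatment, with 34 higher and 23 lower, and 0.13 log2 after LPS, with 50 higher and 16 lower. All genes tested then had medians of −0.03 log2 without treatment and 0.02 after LPS. Among the 24 members with annotated transcripts between 1000 and 2000 nt the median without adjustment was 0.17 log2 without treatment and 0.25 after LPS. The 2299 other genes of this annotated length had 0.03 and 0.05. All lengths here are those of a single annotated transcript per gene, which need not be the one used in these cells. That of Rpl17, for example, has 1326 nt with a leader of 632, so these classes may not match genes by the length expressed. GC content of the transcript and the genotype difference had an r of −0.17 across members without treatment and −0.26 across all genes with an annotation. The part of length and GC in the members' differences was not tested.

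LPS against no treatment gave opposite directions on different scales, so both are given. On the deposited scale in WT cells 66 of 84 members were higher (78.6%) and 4 lower by limma, beside 44.9% of all genes called higher and 44.5% lower, with a member median of 0.23 log2 (1.17-fold) and an all-gene median of 0.00. In Pim1-/- cells 77 were higher (91.7%) and 0 lower, beside 42.0% of all genes called higher and 42.6% lower, and the member median was 0.31 log2 (1.24-fold). With limma at an unadjusted p under 0.05 the lower members still numbered 0 there and the higher 78. None passed the 2-fold rule, which 34.8% of all genes passed in WT and 25.0% in Pim1-/- cells.

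As a share of all FPKM the members went down after LPS in both genotypes. They made up 14.6%, 15.0% and 14.2% of the FPKM sum in untreated WT and 9.63%, 9.77% and 9.90% in LPS-treated WT libraries. In Pim1-/- libraries the share was 17.0%, 16.4% and 16.3% without treatment and 13.28%, 12.98% and 12.56% after LPS. Groups did not overlap in any of these comparisons. The FPKM sum itself rose from 479841 ± 11320 to 842557 ± 6071 in WT and from 461061 ± 10054 to 730504 ± 15650 in Pim1-/- cells (SD, n = 3), and 10 genes led by the chemokine genes Ccl3, Ccl5, Cxcl10 and Ccl4 carried 23.6% of that gain in WT cells. The number of fragments assigned to genes, estimated from the smallest steps of the values, was between 31200000 and 40200000 in all libraries, while 1 FPKM stood for 37.6 to 45.9 fragments per kilobase in untreated and 20.8 to 32.1 in LPS-treated libraries. The deposited FPKM thus kept the typical gene level across libraries, and the sum was free to move. With each library set to the same sum (TPM) 0 members were higher and 81 lower after LPS in WT, with a median of −0.58 log2, and 1 was higher and 79 lower in Pim1-/- cells, with a median of −0.35. On that scale all genes tested had medians of −0.71 and −0.62, so the typical member was above the typical gene. Under quantile normalization the order was the other way round, with member medians of −0.75 in WT and −0.46 in Pim1-/- cells beside all-gene medians of −0.17 and −0.18. The 817 non-members that averaged 100 FPKM or more had medians of 0.85 and 0.55 log2 on the deposited scale, above those of the members.

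**Figure D4:**
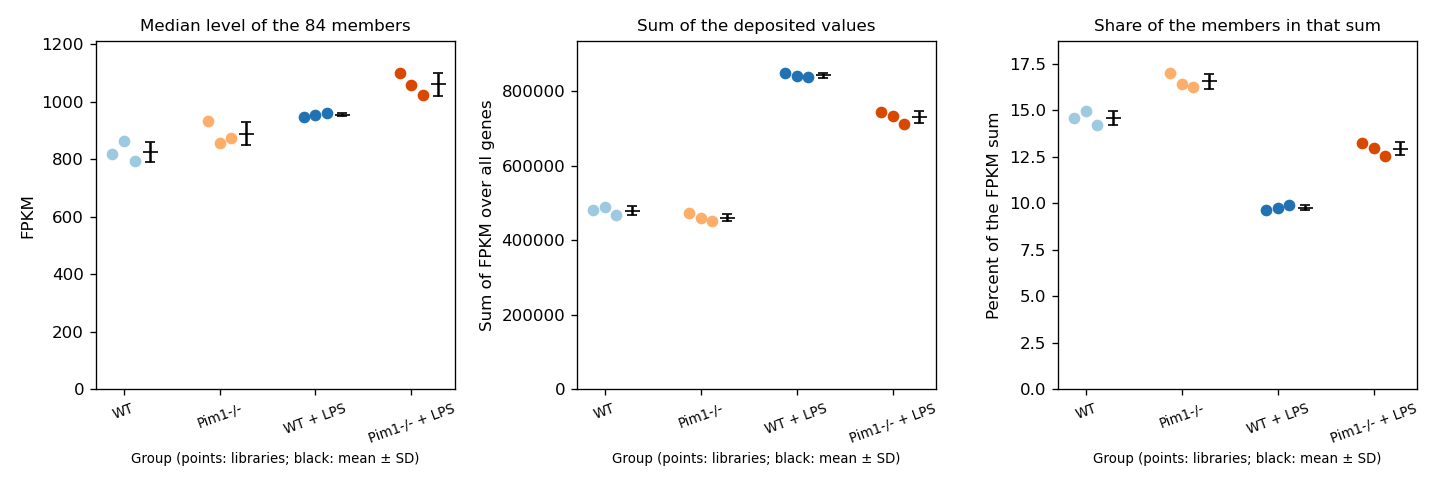
The median FPKM of the 84 members, the sum of FPKM over all genes and the members' percentage of that sum in each library (coloured points), with the mean ± SD of the 3 libraries of a group (black). The median level goes up with LPS and the share goes down, while the sum grows from about 479841 to 842557 in WT and from 461061 to 730504 in Pim1-/- cells.

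The knockout was above WT on each of these scales. Set to the same sum, without treatment 62 members were higher in the knockout and 8 lower (median 0.24 log2), and after LPS 75 were higher and 2 lower (median 0.44 log2). All genes tested had medians of −0.01 log2 without treatment and 0.13 after LPS on that scale, so part of the latter shift was shared by genes in general. In share of FPKM the group means were 16.6 ± 0.41% in Pim1-/- against 14.6 ± 0.36% in WT cells without treatment and 12.9 ± 0.36% against 9.76 ± 0.13% after LPS (SD, n = 3). In bulk samples such as these fewer cells of a type and less RNA per cell cannot be told apart.

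**Figure D5:**
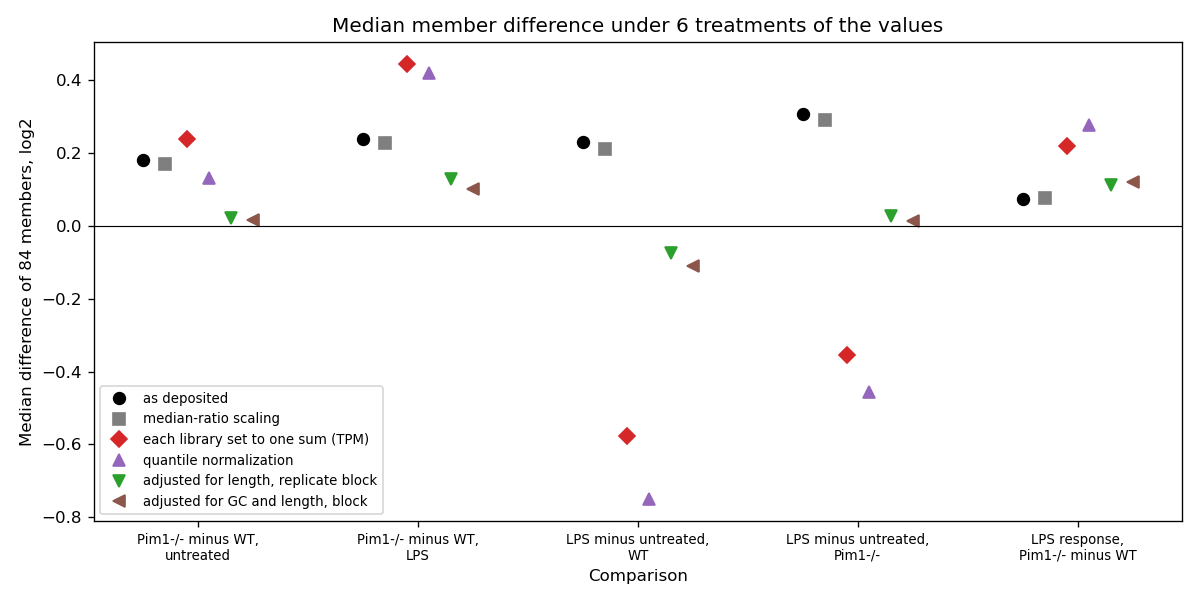
Median log2 difference of the 84 members in 5 comparisons (horizontal) under 6 treatments of the values (symbols). In the comparison of genotypes after LPS every symbol is above 0, between 0.10 and 0.44, and in the LPS comparison of WT cells the values run from 0.23 as deposited to −0.75 under quantile normalization.

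Members differed in their response to LPS around these medians. Rpl24, a large subunit protein at the face toward the small subunit, responded most in both genotypes. It was at 506, 540 and 495 FPKM in untreated and 853, 905 and 928 in LPS-treated WT libraries, and at 507, 484 and 474 against 863, 882 and 833 in Pim1-/- libraries, a rise of 0.80 ± 0.05 and 0.81 ± 0.05 log2 (SE, limma adjusted p = 1.1e-10 and 1.3e-10). Its treated and untreated libraries did not overlap, while its genotype differences did not pass the test. Set to the same sum, Rpl24 had group means of 1069 ± 28.6 and 1063 ± 52.9 TPM in WT cells, whereas Rpl12 went from 1903 ± 81.5 to 1131 ± 11.7 TPM. Large rises on the deposited scale were also those of Rpl26, Rps24 and Rps20 in both genotypes, at 0.46 to 0.76 log2. For Rpl26 this again concerns the small part of the signal listed on the member, since its sum with Gm15772 rose less in the same fit, by 0.30 log2 in WT and 0.415 in Pim1-/- cells. Rps20 stood at 1080, 1108 and 998 FPKM in untreated and 1542, 1519 and 1603 in treated WT libraries. In WT cells 4 members fell, and Rpl3 of the peptidyl transferase region, Rps2 and Rpl14 did so by 0.12 to 0.18 log2. Pearson's r between the responses in WT and Pim1-/- cells, which share no library, was 0.69 across the 84 members and 0.93 across all genes tested.

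In 15 members the response to LPS differed between genotypes. The interaction term of limma was above 0 in 12 members and below 0 in 3 at an FDR under 0.05, beside 29.6% of all genes called higher and 33.3% lower, with a member median of 0.07 log2 and an all-gene median of 0.00. The 2-fold rule passed 6.67% of all genes and 0 members. Rpl28, Rpl3, Rpl4 and Rpsa were among the members with the largest positive differences in response. Rpl28 had a response of −0.07 log2 in WT cells that did not pass the test, with 1160, 1172 and 1139 FPKM before and 1126, 1065 and 1122 after LPS, and rose in Pim1-/- cells from 874, 769 and 871 to 999, 983 and 1022, a difference in response of 0.33 ± 0.07 log2 (SE, limma adjusted p = 0.0008). Rpl3 lay at 604, 604 and 579 FPKM before and 537, 525 and 516 after LPS in WT, and at 627, 607 and 615 before and 694, 669 and 625 after LPS in Pim1-/- libraries. Rpl3 thus fell in WT and rose in Pim1-/- cells on this scale, each past the threshold in limma. With the replicate number as a block in limma the positive differences numbered 22 members and the negative 3, and set to the same sum they numbered 60 and 1. On the latter scale the all-gene median of the difference in response was 0.12 log2.

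The stalk proteins Rplp0, Rplp1 and Rplp2 recruit the elongation factors to the ribosome. Rplp1 rose in Pim1-/- cells at both times, by 0.32 ± 0.06 log2 without treatment and 0.43 ± 0.06 after LPS (SE, limma). Rplp2 fell without treatment and had a difference of −0.09 ± 0.05 after LPS that did not pass the test. Rplp0, at 968, 975 and 932 FPKM in WT and 965, 900 and 918 in Pim1-/- libraries without treatment, differed by −0.05 ± 0.04 there and rose after LPS by 0.17 ± 0.04 log2, from 1088, 1065 and 1071 to 1256, 1203 and 1180 FPKM. Rpl5 and Rpl11, the partners of 5S rRNA that bind Mdm2, were higher in Pim1-/- cells by 0.22 and 0.13 log2 without treatment and by 0.36 and 0.18 after LPS, each past the threshold in limma.

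A list of 8 members was drawn up for further roles or features they are known for, not all of them outside the ribosome. All 8 were higher in Pim1-/- cells in both genotype comparisons. Rpsa and Rpl26 were so by the values given above, with the limit given there for Rpl26 and its copy. Rps6, the substrate of S6 kinase, was higher in Pim1-/- cells by 0.19 log2 without treatment and 0.24 after LPS. Rpl13a, which joins the complex that silences inflammatory mRNAs in activated macrophages, was higher by 0.11 and 0.24 log2. Rps3, a partner of NF-κB subunits, was higher by 0.20 and 0.28 log2. Rps27a, made as a fusion with ubiquitin, rose by 0.26 and 0.29 log2, Rps19, a gene mutated in Diamond-Blackfan anemia, by 0.26 and 0.22, and Rpl38, known for the translation of Hox mRNAs, by 0.25 and 0.26. Each of these passed the limma threshold at both times, where 63.1% and 67.9% of all members and 32.7% and 35.7% of all genes were called higher.

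Rpl22l1, Rps27l, Rpl7l1 and Rpl36al were set against their parent genes within each library, by the log2 ratio of FPKM + 1, and Rps4l was not. Between Rpl22l1 and Rpl22 the ratio was 192 ± 8.48% in untreated WT, 225 ± 14.3% in untreated Pim1-/-, 233 ± 9.71% in LPS-treated WT and 259 ± 18.2% in LPS-treated Pim1-/- cells (SD, n = 3). It was higher in the knockout by 0.19 log2 (exact permutation test within treatments, two-sided, p = 0.01, adjusted over 8 tests p = 0.016) and higher after LPS by 0.24 log2 (exact permutation p = 0.005, the smallest possible, adjusted p = 0.0133). The ratio of Rpl36al to Rpl36a was 81.3 ± 2.08% in untreated WT, 72.4 ± 2.40% in untreated Pim1-/-, 89.1 ± 2.40% in LPS-treated WT and 63.5 ± 1.45% in LPS-treated Pim1-/- cells and was lower in the knockout by −0.33 log2 (exact permutation p = 0.005, adjusted p = 0.0133). Rpl36al itself was at 567, 565 and 567 FPKM in LPS-treated WT and 606, 559 and 523 in LPS-treated Pim1-/- libraries, where Rpl36a was at 617, 642 and 649 against 932, 899 and 826. Rpl7l1 held 3.89 ± 0.22% of the level of Rpl7 in untreated WT and 3.66 ± 0.14% in untreated Pim1-/- cells, and 4.32 ± 0.05% against 3.70 ± 0.09% after LPS, which was lower in the knockout by −0.16 log2 (exact permutation p = 0.01, adjusted p = 0.016). The ratio of Rps27l to Rps27 rests on the few fragments of Rps27 and is not interpreted, though it passed the same test (a difference of 1.05 log2, exact permutation p = 0.005, adjusted p = 0.0133). Treatment did not pass the exact permutation test for Rps27l (adjusted p = 0.775), Rpl7l1 (adjusted p = 0.0933) and Rpl36al (adjusted p = 0.731). Annotated transcripts were 552 nt for Rpl22l1 and 2051 for Rpl22, 1276 for Rpl36al and 483 for Rpl36a, and 2606 for Rpl7l1 and 1163 for Rpl7. In each of these pairs the knockout ratio moved toward the gene whose annotated transcript was shorter. The Rpl36al transcript has a leader of 877 bases before a coding sequence of 321, and the start window printed for Rpl36al lies outside it. Lengths of the transcripts used in these cells are not known. The part of length in these ratios was not tested.

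Of the ribosomal proteins outside the symbol rule, Fau, a ubiquitin-like fusion with a small subunit protein, was lower in Pim1-/- cells by −0.23 log2 without treatment and −0.24 after LPS in limma. Gnb2l1, which codes for the scaffold Rack1, did not pass the test between genotypes and lay at 753 FPKM in untreated WT cells.

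Other genes of translation were counted from lists, beside 32.7% of all genes called higher and 42.0% lower in untreated Pim1-/- cells and 35.7% and 41.7% after LPS. Of 77 mitochondrial ribosomal protein genes 55 were higher and 3 lower by limma in the knockout without treatment (median 0.34 log2), and 60 higher and 7 lower after LPS, with a median of 0.29. In response to LPS in WT cells 35 of them were higher (45.5%) and 31 lower (40.3%), near the 44.9% and 44.5% of all genes. Of 14 elongation and other TOP genes 3 were higher (21.4%) and 5 lower (35.7%) in untreated Pim1-/- cells, both below the shares of all genes. Eif3f and Eef2 fell there by 0.79 and 0.61 log2, Hnrnpa1 rose by 0.78, and the list median was 0.03 log2. After LPS 8 of the 14 were higher and 2 lower, and Npm1 rose by 0.97 log2. Of 32 ribosome biogenesis genes 25 were higher and 3 lower without treatment, among them the box C/D RNP proteins Nop58 and Nop56, which rose by 1.25 and 1.09 log2, and 16 were higher and 12 lower after LPS. Within the 17 genes of TOP control and mTOR signalling, Larp1 stood at 12.4 and 10.3 FPKM in untreated WT and Pim1-/- cells and at 124 and 56.7 after LPS, where it fell by 1.11 log2 in the knockout. Without treatment Eif4e and Rheb were higher in Pim1-/- cells by 1.11 and 0.66 log2, and Eif4ebp2 was lower by 0.76. After LPS Eif4ebp1 was higher there by 0.82 log2 and Eif4g1 lower by 0.91. Over that list 5 genes were higher (29.4%) and 6 lower (35.3%) in untreated Pim1-/- cells and 7 were higher (41.2%) and 6 lower (35.3%) after LPS, close to the shares of all genes.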

How the data were processed

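RNA-seq values of 12 libraries were used as the authors deposited them, 1 column per library with no unit written. Per the labels, libraries were TruSeq stranded mRNA, reads were trimmed with cutadapt 1.18 and mapped with TopHat2 2.0.13, and Cuffdiff 2.2.1 gave the values. They were read as FPKM, and the scaling between libraries is one the authors did not describe in the sources used here. The processing notes name mm10 and the methods rat rn5, while the symbols are those of mouse. Fragments per library were estimated from 257 to 307 values of at most 0.3 FPKM, of which 72.0% to 81.6% lay within 0.1 of a whole multiple of 1 fragment. This was too few for a count test.

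Genes with at least 1 FPKM in 3 libraries were fitted as log2(FPKM + 1), a scale that understates changes of low genes, in limma 3.58.1 (R 4.3.3) with a mean-variance trend and 4 group means, and Benjamini-Hochberg adjustment over 10581 genes. The fit was tested on simulated data. Named genes were the 5 highest and lowest members, the 5 largest changes each way per comparison, stalk, 5S, paralogue and multi-role genes, and the 3 largest of comparison lists. Some genes that this rule takes entered every fit and count and are not reported here by name. Members, lists and tests were chosen with earlier results of these data known. Copies were found with blastn 2.17.0. Other steps ran in Python 3.11.15, with plots by matplotlib 3.10.9.

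Replicate numbers recur in all groups. Deviations of same-numbered libraries from their group means, over 3646 genes, correlated at 0.33, 0.37 and 0.46 between the untreated genotypes. The values were 0.43, 0.54 and 0.68 between treatments of Pim1-/- cells and −0.10, 0.14 and 0.19 between those of WT cells. Between the genotypes after LPS they were 0.02, 0.37 and 0.19. Untreated WT against LPS-treated Pim1-/- libraries gave 0.03, 0.46 and 0.52, and untreated Pim1-/- against LPS-treated WT libraries −0.17, 0.49 and 0.21. Libraries of unlike number were not compared, so these values cannot settle whether the numbers mark pairs. The main fits used no block. Alternatives changed the pseudocount, filter, scaling, model, replicate block, threshold and libraries; adding copies to members and adjusting for GC and length were chosen after seeing the data.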

Additional observations from a re-analysis of the deposited data

Results flagged for a closer look

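In 15 members the response to LPS differed between genotypes by the interaction term of limma (Benjamini-Hochberg FDR under 0.05 over all genes), as the difference between the response in Pim1-/- and that in WT cells on the log2 scale. These were 12 above 0 (14.3%) and 3 below (3.57%), beside 29.6% of all genes called higher and 33.3% lower. Members were thus called less often than genes in general. The 12 became 7 to 21 on leaving out 1 library, 7 being without untreated WT replicate 2, 20 without untreated Pim1-/- replicate 1 and 21 without LPS-treated Pim1-/- replicate 3. They became 22 with the replicate block, 40 with the length adjustment and block, and 60 with each library set to one sum, where the all-gene median was 0.12 log2. The differences below 0 were −0.54 for Rps19bp1, with responses of 0.44 in WT and −0.10 in Pim1-/- cells, −0.33 for Rps27l, with 0.35 and 0.02, and −0.26 for Rpl36al, with 0.42 and 0.16. Differences above 0 included 0.33 for Rpl28, with responses of −0.07 in WT and 0.26 in Pim1-/- cells and 0.28 for Rpl3, with −0.18 and 0.10. Further ones were 0.23 for Rpl4, 0.22 for Rpsa, 0.22 for Rpl32, 0.22 for Rplp0, 0.21 for Rpl14, 0.21 for Rpl7a, 0.16 for Rplp2 and 0.16 for Rpl6, and by 0.15 for Rps2, whose adjusted p was 0.0464. Rps19bp1 is not a ribosomal protein gene, and Rps27l and Rpl36al are paralogues, so none of the 78 members without these had a difference below 0 at this threshold.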

How the results depend on the processing

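Counts are given as members higher and lower, and medians on the log2 scale. Setting each library to one sum (TPM) turned the LPS comparisons around, to 0 and 81 members and a median of −0.58 in WT, and 1 and 79 with −0.35 in Pim1-/- cells. Quantile normalization did the same, with 1 and 79 members and −0.75, and 1 and 80 with −0.46. The genotype difference after LPS kept its direction, with a median of 0.44 and 2 members lower (TPM) or 0.42 and 4 lower (quantile). The all-gene medians there were 0.13 and −0.01. For the difference in response these scalings gave 60 and 1 members with 0.22 and 64 and 1 with 0.28, beside all-gene medians of 0.12 and 0.02. Adjusting for length in a fit with the replicate block gave 34 and 23 members with 0.0208 between untreated genotypes, 16 lower with 0.13 between genotypes after LPS, 15 and 42 with −0.0762 for LPS in WT, 31 and 21 with 0.0274 for LPS in Pim1-/- cells and 40 higher for the difference in response. Adjusting for GC and length with the block gave 31 and 25 with 0.0163, 18 lower with 0.10, 19 and 52 with −0.11, 32 and 22 with 0.013 and 43 higher. With the length adjustment all genes tested had LPS medians of −0.20 in WT and −0.18 in Pim1-/- cells. With GC and length these were −0.20 and −0.17, so the member medians lay above those of all genes under both adjustments. The rule of more than 2-fold left 0 members in every comparison. With the replicate block alone the higher members numbered 22 for the difference in response, and no other count moved by over 1.5 times. Leaving out the paralogues and Rps19bp1 left 0 members with a response difference below 0.

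Leaving out each library in turn, the higher and lower members ranged from 43 to 54 and 8 to 11 between untreated genotypes, 55 to 61 and 7 to 9 after LPS, 56 to 66 and 3 to 4 for LPS in WT, 72 to 79 and 0 to 1 for LPS in Pim1-/- cells, and 7 to 21 and 3 to 3 for the difference in response. The last count was 7 without untreated WT replicate 2, 20 without untreated Pim1-/- replicate 1 and 21 without LPS-treated Pim1-/- replicate 3. The paralogue ratios kept their side of the threshold except that of Rpl7l1 to Rpl7 between treatments, which ranged from 0.0527 to 0.0937 and passed without untreated Pim1-/- replicate 3.

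Single members that changed sign are listed with the setting. After LPS in WT cells they were Rpl24 at −0.32 (quantile) and −0.00962 (TPM), Rpl26 at −0.0339 and −0.14, Rps24 at −0.21 and −0.26 and Rps20 at −0.22 and −0.26. After LPS in Pim1-/- cells they were Rpl24 at −0.0362 (quantile), Rps20 at −0.12 (quantile) and −0.0578 (TPM), and Rps24 at −0.21 and −0.20. Between genotypes after LPS, Rpl18 reached 0.0327 (quantile) and 0.0457 (TPM), Rps19bp1 0.0239 (TPM), Rplp2 0.12 (TPM), Rpl7l1 0.20 under both and Rpl36al 0.26 and 0.19, while the response difference of Rpl36al became 0.12 (quantile). Under the GC and length adjustment Rpl22l1 came to −0.00639, Rpl5 to −0.0598, Rps6 to −0.0179 and Rpl7 to −0.22 between untreated genotypes and Rpl7 to −0.0157 after LPS, and under the length adjustment Rpl11 came to −0.0406 and Rpl13a to −0.0433. The cause of these changes was not tested. Of 1749 values of 73 named gene comparisons under alternatives, 1651 kept direction and side of the threshold, 50 no longer passed, 19 newly passed and 29 changed sign. Depth was lowest for Rps27, at an estimated 3.12 to 20.0 fragments per library.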

Other observations

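Of the 14 members on chromosome 7 (GRCm38, GENCODE M21), 6 were lower and 7 higher in untreated Pim1-/- cells by limma, beside 42.0% of all genes called lower and 32.7% higher. The share called lower on this chromosome was thus near that of all genes, while over all chromosomes 10 of the 84 members were lower. Rps9, Rpl28, Rpl18, Rps13 and Rplp2, in order along the chromosome, had differences of −0.38, −0.47, −0.25, −0.23 and −0.25 log2. Other members of the same chromosome were higher, such as Rps19 at 0.26 log2 and Rpl13a at 0.11. The tested genes of chromosome 7 other than members had a median of −0.13 log2, against −0.05 for all genes, with 49.4% called lower. This was noticed after the values were seen and was not tested.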
